A study of Sus scrofa with 4 samples.

Results

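The miRNAs described here belong to 7 families known for their enrichment in neurons: miR-124, miR-128, miR-129, miR-137, miR-138, miR-153 and miR-218. They were chosen by family number among the annotated pig miRNAs, with any letter and either arm of the hairpin. The annotated table held 12 such rows. The 3 rows of the abundant miR-218 arm repeat the same reads and were counted once, which left 10 members of 321 miRNAs. Of these, 9 reached 10 CPM (counts scaled to a common library size) in at least 1 library and are called measured, as were 251 of all 321. Small RNA was sequenced from the hippocampus of wild-type Rongchang piglets, a Chinese breed, from 1 litter of 8 (4 females and 4 males). The iron group of 4 piglets was injected into muscle with 200 mg of iron dextran, an iron-sugar complex, on days 3 and 4 after birth to induce oxidative stress. The control group of 4 littermates is labelled as not injected. Tissue was mixed within a group and a region, so there is 1 pooled library for each of iron ventral, control ventral, iron dorsal and control dorsal hippocampus. How many piglets entered each pool, and at what age, is not stated in the labels. The variation from animal to animal was therefore not measured.

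A miRNA guides Argonaute proteins to messenger RNAs, mostly through its seed, bases 2 to 8 counted from the 5′ end, and lowers the translation and stability of the messages it pairs with. Neurons keep several miRNAs at levels far above those of glia. miR-124 is known for holding down transcripts of non-neuronal cells during and after neuronal differentiation. miR-128 is known in mice for restraining neuronal excitability, miR-129-5p in rodents for repressing potassium channel translation, and miR-138 in rats for limiting the size of dendritic spines. miR-137 is known for roles in dendrites and synapses, miR-153 for targeting transcripts of presynaptic proteins such as alpha-synuclein, and miR-218 for its high level in mouse motor neurons.

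The mature sequences show which members could share targets and which are separate. They come from the deposited table of conserved sequences, from rows whose species list includes pig, with the seed in capitals.
miR-124a: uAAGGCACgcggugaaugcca
miR-128: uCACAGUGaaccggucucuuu
miR-129-5p: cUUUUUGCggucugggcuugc
miR-129-2-3p: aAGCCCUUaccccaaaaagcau
miR-137: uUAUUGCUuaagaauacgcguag
miR-138: aGCUGGUGuugugaaucaggc
miR-153: uUGCAUAGucacaaaaguga
miR-218: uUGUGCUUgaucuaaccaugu
The 9 pig rows of these families in that table hold 8 distinct seeds, and the only seed carried by 2 of them is that of miR-218, whose second row is 1 base longer. No pair of families shared a seed. Outside the 7 families, the miR-128 seed also stood in rows of the mir-216 family and the miR-129-5p seed in rows of the mir-722 family. In the RefSeq annotation of the pig (assembly Sscrofa11.1), 10 genes of these families were found, none of them for miR-153 or the precursor mir-218-2. Of the 10, 5 lie within another gene: MIR128-1 within R3HDM1, MIR128-2 within ARPP21, MIR218-1 within SLIT2, MIR218B within SLIT3 and MIR129A within a long non-coding RNA gene.

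Together the members made up 7.04% of annotated miRNA reads in iron ventral (exact binomial 95% interval 7.02% to 7.05%) and 6.97% in control ventral (6.95% to 6.98%). They made up 5.53% in iron dorsal (5.52% to 5.55%) and 7.43% in control dorsal (7.42% to 7.45%). The iron dorsal library was thus the low one. Annotated reads numbered 12299682 in iron ventral, 13839534 in control ventral, 11396800 in iron dorsal and 12100970 in control dorsal. Intervals here and below cover counting error only, and amplified reads are not independent molecules.

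Levels are given as CPM after TMM scaling, which sets typical miRNAs equal between libraries. They are not corrected for how well each sequence is captured. miR-124a was the most abundant member, at a mean of 38982 CPM over the 4 libraries, and ranked between 4 and 7 among all annotated miRNAs. miR-128 followed with a mean of 14015 CPM. Neither overlapped the next member in its range over libraries. miR-218, at a mean of 4134 CPM, and miR-137, at 3565 CPM, overlapped each other. A lower tier held miR-138 (1835 CPM), miR-129b (1533 CPM), miR-129a-5p (1531 CPM) and miR-153 (1475 CPM), and each of them overlapped its neighbour. miR-129a-3p, the minor arm of its hairpin, averaged far less, from 110.0 to 184 CPM. miR-218-3p, also a minor arm, had 3 reads in iron ventral, 7 in control ventral, 2 in iron dorsal and 1 in control dorsal, too few for a ratio. The rows miR-129b and miR-129a-5p stand for 2 precursors, but their reads differed by at most 0.152%, so they are close to 1 measurement. The measured members varied over the libraries by a median of 1.43-fold (highest over lowest CPM), against 1.33-fold for all 251 measured miRNAs.

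**Figure D1:**
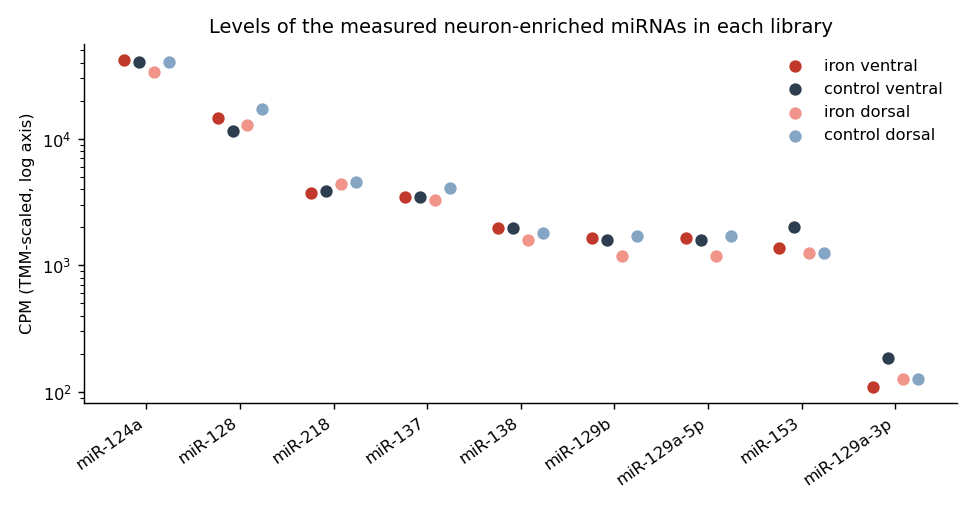
Levels of the 9 measured members in CPM on a log axis, with 1 point per pooled library and no replicates. miR-124a leads, 5 members lie lowest in iron dorsal, and miR-153 and miR-129a-3p lie highest in control ventral.

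In the ventral hippocampus, the comparison of iron with control asks how the iron injections bear on these miRNAs in that region. Most members differed little: miR-124a, miR-218, miR-137, miR-138, miR-129b and miR-129a-5p differed from control by at most 1.042-fold in either direction. miR-128 was higher in iron, and miR-153 and miR-129a-3p were lower. No member reached 2-fold (0 of 9), and 1.99% of all 251 measured miRNAs did. Here and below, counts at a fold threshold also require a counting interval that excludes 1. At 1.5-fold, 1 of 9 members passed, miR-129a-3p on the lower side, against 5.58% of all measured miRNAs in either direction. With total reads miR-153 passed too, and 6.77% of all measured miRNAs did. The members' median log2 ratio was -0.004, with 4 above and 5 below 0, beside 0.002 for all measured miRNAs. That median was 0.02 with DESeq2 size factors, and the signs for miR-124a, miR-137, miR-138, miR-129b and miR-129a-5p also depended on the scaling. Counting intervals excluded a ratio of 1 for 7 of 9 members (77.8%) and for 77.3% of all measured miRNAs.

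miR-153 stood at 1376 CPM in iron ventral, 2021 CPM in control ventral, 1257 CPM in iron dorsal and 1244 CPM in control dorsal. The control ventral library was the high one, and the other 3 lay close together. The ventral iron ratio was 0.681 (95% counting interval 0.668 to 0.694), or 1.47-fold lower. miR-129a-3p stood at 110.0 CPM in iron ventral, 184 CPM in control ventral, 126.7 CPM in iron dorsal and 127.4 CPM in control dorsal. Again control ventral stood apart, and the ventral iron ratio was 0.598 (0.560 to 0.638), or 1.67-fold lower. In the dorsal hippocampus neither differed beyond counting error. The iron ratio there was 1.01 (0.988 to 1.04) for miR-153 and 0.995 (0.924 to 1.07) for miR-129a-3p. On the log2 scale these are 0.02 and -0.008, and they turned to -0.11 for miR-153 with total reads and to 0.002 for miR-129a-3p with DESeq2 size factors.

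Some lists of markers of other tissues and cells were also highest in the control ventral library, and others were not. By their sums, the erythroid, choroid plexus and ciliated ependyma lists were highest there. The sums of the vascular list and of the microglia and blood immune list were lowest there. Most immune miRNAs went against their sum. For ventral iron, 4 of 6 were below 0 on the log2 scale (median -0.27). For dorsal against ventral in control, 4 of 6 were below 0 as well (median -0.13), and miR-146b was highest in both comparisons. Of the erythroid miRNAs, 2 of 3 were above 0 for ventral iron. The muscle and liver lists lay in between. The 3 miRNAs of the miR-183 cluster, abundant in sensory epithelium and pineal, summed to 127 CPM in iron ventral, 453 CPM in control ventral, 137.9 CPM in iron dorsal and 153.2 CPM in control dorsal, and all 3 were measured. The only annotated miRNA of the epithelial list was below the minimum throughout, at 0.162 CPM in iron ventral and 4.49 CPM in control ventral. In the dorsal libraries it had 0.282 CPM with iron and 0.243 CPM in control. The part of such tissue in the miR-153 and miR-129a-3p values was not tested.

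In the dorsal hippocampus, the same question gave a different picture. Here 8 of 9 members were lower in iron, among them miR-129a-3p by a margin that turned with DESeq2 size factors. The exception, miR-153, was level, as given above. The median log2 ratio was -0.27, against -0.02 for all measured miRNAs, of which 47.0% lay above 0. No member reached 2-fold, and 0.797% of measured miRNAs did. At 1.5-fold the counts were 0 of 9 members and 9.56% of all measured miRNAs. The rows miR-129b and miR-129a-5p passed 1.5-fold with total reads (12.4% of all measured miRNAs) and with the authors' RPM (12.2%). The shift was thus shared by several members and small in each. The 8 lower values are not 8 separate observations, since the members come from 1 pair of libraries and miR-129b and miR-129a-5p repeat each other.

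miR-129-5p differed most. The miR-129b row stood at 1641 CPM in iron ventral, 1590 CPM in control ventral, 1195 CPM in iron dorsal and 1708 CPM in control dorsal. Iron dorsal was below the other 3, and its ratio to control dorsal was 0.6999 (0.685 to 0.7155), or 1.43-fold lower. A lower ratio was found in 8.37% of all measured miRNAs.

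miR-124a, the most abundant member, stood at 41655 CPM in iron ventral, 40373 CPM in control ventral, 33451 CPM in iron dorsal and 40449 CPM in control dorsal. The other 3 libraries lay close together, and iron dorsal was below all of them. Its dorsal iron ratio was 0.827 (0.823 to 0.831), or 1.21-fold lower, and 22.7% of all measured miRNAs had a lower ratio. The ventral log2 ratio of 0.05 turned to -0.02 with scaling to total reads.

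miR-137 had the same low library. It stood at 3472 CPM in iron ventral, 3482 CPM in control ventral, 3257 CPM in iron dorsal and 4047 CPM in control dorsal, so its dorsal pair included both its lowest and its highest value. The dorsal iron ratio was 0.805 (0.794 to 0.816). miR-138 stood at 1965 CPM in iron ventral, 1984 CPM in control ventral, 1594 CPM in iron dorsal and 1797 CPM in control dorsal. Both dorsal libraries were below both ventral ones for miR-138, and the dorsal iron ratio was 0.887 (0.8695 to 0.905).

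miR-218 showed almost no iron difference. It stood at 3714 CPM in iron ventral, 3870 CPM in control ventral, 4412 CPM in iron dorsal and 4542 CPM in control dorsal. The 2 dorsal libraries were above the 2 ventral ones, and the iron ratio was 0.960 (0.948 to 0.972) in ventral and 0.971 (0.9595 to 0.983) in dorsal hippocampus.

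miR-128 was the only member with iron ratios on opposite sides of 1 in the 2 regions under all 3 scalings compared (TMM, total reads and DESeq2 size factors). It stood at 14615 CPM in iron ventral, 11446 CPM in control ventral, 12740 CPM in iron dorsal and 17261 CPM in control dorsal. The 2 iron libraries lay between the 2 controls. The iron ratio was 1.28 (1.27 to 1.29) in ventral hippocampus, where 90.4% of measured miRNAs had a lower ratio. In dorsal hippocampus it was 0.738 (0.733 to 0.743), or 1.355-fold lower, and 12.0% had a lower ratio. The log2 ratio was -0.44 in dorsal and 0.35 in ventral hippocampus, a dorsal minus ventral difference of -0.79, and that difference was not tested, since no combination has a replicate. Among all measured miRNAs, 47 of 251 (18.7%) had opposite iron ratios by the same rule, intervals included, so such a pattern was common in these libraries.

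**Figure D2:**
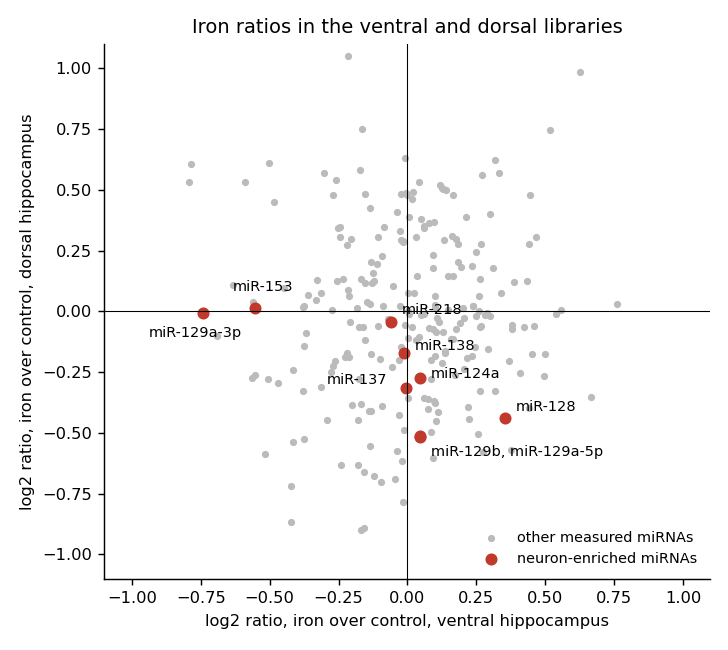
Log2 ratio of CPM, iron over control, in ventral (horizontal axis) and dorsal (vertical axis) hippocampus for the measured miRNAs, with the 9 members in red and labelled. Of all 251 measured miRNAs, 5 lie outside the axes. Members spread along the vertical below 0, with miR-128 to the right at 0.35 and -0.44 and miR-153 and miR-129a-3p to the left near 0.

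Summed levels of glial markers also differed between these libraries. The oligodendrocyte list (miR-219 and miR-338), of which 2 of 3 annotated miRNAs were measured, summed to 13906 CPM in iron ventral and 10264 CPM in control ventral, 135.5% of control. It summed to 8812 CPM in iron dorsal and 11503 CPM in control dorsal, 76.6% of control. Its summed log2 ratios of 0.44 and -0.38 had the signs of those of miR-128. The sums of the vascular (0.09 and -0.22), muscle (0.20 and -0.38) and microglia and blood immune lists (0.29 and -0.03) had the same sign pair. So did the members' own sum (0.08 and -0.30), and the other lists did not. Most microglia and blood immune miRNAs went against their sum for ventral iron, with 2 above and 4 below 0 (median -0.27). The highest was miR-146b. For dorsal iron 5 of 6 were below 0. The vascular miRNAs were split for dorsal iron, with 3 above and 3 below 0. The astrocyte-associated list (miR-23, miR-27 and miR-29, also found in other cells), with 7 of 8 measured, summed to 33915 CPM in iron ventral against 26456 CPM in control ventral, and to 34264 CPM in iron dorsal against 26451 CPM in control dorsal. Its members were mixed: 5 of 7 were above 0 on the log2 scale for ventral iron and 4 of 7 for dorsal iron, with miR-29b at -0.55 in ventral and miR-29c at -0.39 in dorsal hippocampus. The members together summed to 59226 CPM in iron dorsal and 72880 CPM in control dorsal, 81.3% of control. The part of cell composition in these values was not tested. In tissue, fewer neurons and less miRNA per neuron cannot be told apart.

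The comparison of dorsal with ventral hippocampus was made within each treatment. In the control libraries 2 members passed 1.5-fold, against 6.77% of all measured miRNAs: miR-128 was higher in dorsal, with a ratio of 1.51 (1.498 to 1.52), and miR-153 was lower, with a ratio of 0.615 (0.603 to 0.627), or 1.625-fold. The miR-128 call rests on a narrow margin: it was lost with total reads, with TMM computed without the members and with rows not merged, where its log2 ratio was 0.55, 0.57 and 0.53. None reached 2-fold (background 1.99%). miR-128 had a higher ratio than 97.2% of measured miRNAs and miR-153 than 3.19%. The median log2 ratio of the members was 0.10, with 6 above and 3 below 0, against -0.004 for all measured miRNAs. One of the 6, miR-124a, was at a ratio of 1.002 (0.998 to 1.01), level within counting error, and its sign turned with total reads.

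In the iron libraries the dorsal to ventral comparison gave a median log2 ratio of -0.20, with 2 above and 7 below 0, against 0.01 for all measured miRNAs. Neither 1.5-fold (background 8.37%) nor 2-fold (background 0.797%) was reached by any member. The 2 above 0 were miR-218, with a ratio of 1.19 (1.17 to 1.203), and miR-129a-3p, with a ratio of 1.152 (1.07 to 1.24). miR-218 was the one measured member with about the same dorsal to ventral ratio in both treatments, 1.19 in iron and 1.17 (1.16 to 1.19) in control. miR-138 was lower in dorsal in both, with a ratio of 0.811 (0.795 to 0.827) in iron and 0.906 (0.890 to 0.922) in control. All 4 comparisons are made from the same 4 libraries, so each library enters 2 of them and their ratios are not independent.

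**Figure D3:**
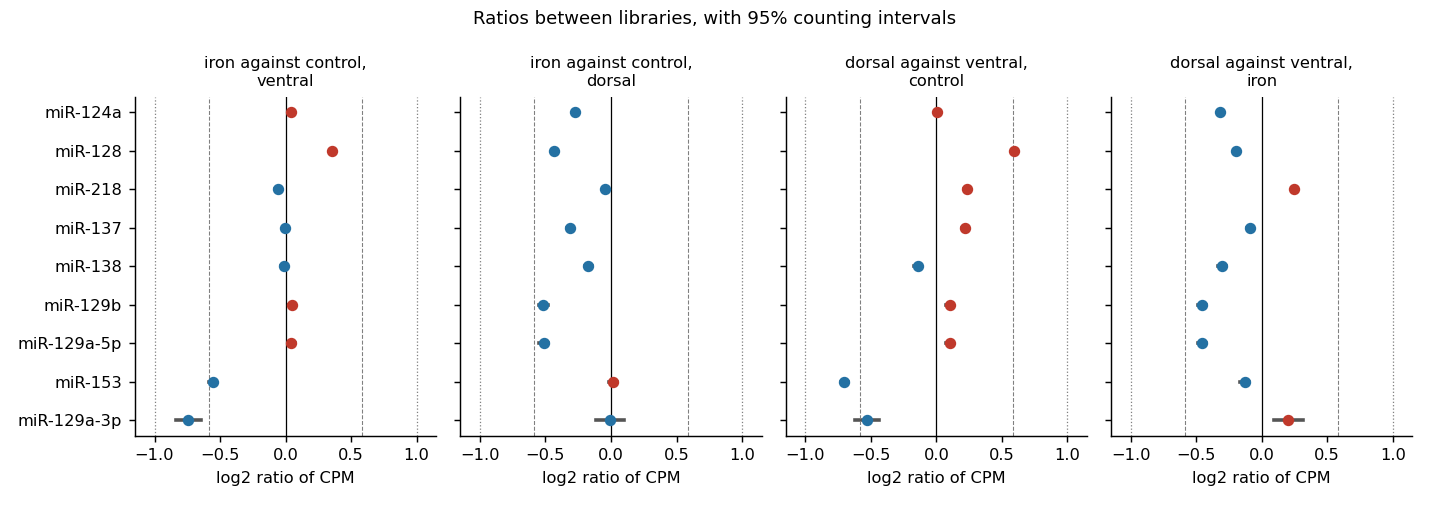
Log2 ratios of CPM for the 9 measured members in the 4 comparisons, with bars for 95% counting intervals, which are often shorter than the point. Red points are above and blue points below 0; dashed lines mark 1.5-fold and dotted lines 2-fold. No member passes 2-fold, and 8 of 9 lie below 0 for iron against control in dorsal hippocampus, where miR-129a-3p crosses 0 with DESeq2 size factors.

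Over all 4 libraries, the quasi-likelihood test of edgeR, with region and treatment as additive terms, called none of the 251 measured miRNAs for iron at a Benjamini-Hochberg adjusted p under 0.05 (background 0%). At an unadjusted p under 0.05 it called 11 (4.38%), of which 0 were members. For region it also called 0 of 251, with 8 (3.19%) at an unadjusted p under 0.05, of which 0 were members. With other scalings, with no minimum and with rows not merged, edgeR called 0 to 3 miRNAs for iron and 0 to 4 for region, none of them a member. DESeq2's Wald test called 1 miRNA for iron and 0 for region, none of them a member. For iron, the fitted log2 differences of the 9 measured members ran from -0.04 for miR-128 (SE 0.21) to -0.38 for miR-129a-3p (SE 0.27). Each lay within 2 SE of 0, and the share of all 251 below 0 in this fit was not counted. The rows miR-129b and miR-129a-5p repeat each other here. The value for miR-128 averages log2 ratios of 0.35 in ventral and -0.44 in dorsal hippocampus. The lowest unadjusted p among members for iron was 0.189, for miR-129a-3p (edgeR, adjusted p = 0.929). For region, miR-153 had the lowest, with a log2 difference of -0.42 (SE 0.21) and an unadjusted p of 0.0737 (edgeR, adjusted p = 0.996). Both dorsal libraries were below both ventral ones for miR-153. The model has 1 residual degree of freedom, and both regions of a treatment came from the same group of 4 piglets. With no replicate in any combination, that degree of freedom measures departure from additive effects of region and treatment. In edgeR it is combined with values from the other miRNAs. Opposite iron ratios in the 2 regions, as for miR-128, are thus counted as noise. The p-values do not measure the spread between animals, and are too small for iron where the pools of both regions share piglets. Which piglets entered each pool is not stated. A difference that misses the threshold in this design is not shown to be absent.

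The table of conserved sequences held 111 rows of the 7 families, counted separately from many species' sequences. Summed by family, its ratios had the same sign as those of the annotated table in 26 of 28 pairs of family and comparison, and differed by a median of 0.02 and at most 0.10 on the log2 scale. The 2 exceptions were ventral iron ratios near 1, of miR-137 and miR-138. Both tables come from the same reads, so this is a check of the counting and no second measurement.

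That table also shows both arms of the hairpins. The abundant arm held at least 90.7% of its family's reads in every library. Minor-arm reads are fewer, and they did not always follow the abundant arm. Reads of the miR-124 5p arm, which has another seed, are shown by the most abundant of its rows.
miR-124-5p: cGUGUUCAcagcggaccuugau
The 5p arm of miR-124 summed to 170 CPM in iron ventral, 151 CPM in control ventral, 205.6 CPM in iron dorsal and 162 CPM in control dorsal. Iron dorsal was the high library for this arm and the low one for the abundant 3p arm, at 30210 CPM in iron dorsal against 37441 CPM in control dorsal. The dorsal iron ratio was 1.27 (1.196 to 1.35) for the 5p arm and 0.807 (0.803 to 0.8105) for the 3p arm. The 5p rows were not uniform. Before scaling, the most abundant row had 1410 reads in iron dorsal and 1432 in control dorsal, and the row tgu-miR-124-5p had 615 and 424. How reads were divided between such rows is not stated. The 5p share of the family was 0.437% in iron ventral and 0.412% in control ventral, and 0.675% (0.6465% to 0.704%) in iron dorsal and 0.429% (0.410% to 0.448%) in control dorsal.

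The minor 5p arm of miR-153 also differed from its abundant 3p arm. It summed to 40.3 CPM in iron ventral, 34.6 CPM in control ventral, 35.3 CPM in iron dorsal and 46.8 CPM in control dorsal. Control ventral, the high library for the 3p arm, was the lowest for this sum, though only just below iron dorsal. The ventral iron ratio was 1.16 (1.02 to 1.32) for the 5p arm and 0.682 (0.669 to 0.695) for the 3p arm. The 5p rows were not uniform. Rows named miR-153-1-5p had 21.0 CPM in iron ventral and 13.7 CPM in control ventral, a ratio of 1.54 (1.27 to 1.86). Rows named miR-153-5p had 19.25 CPM in iron ventral and 20.9 CPM in control ventral, a ratio of 0.919 (0.771 to 1.095), so they were level within counting error and control ventral was not their lowest library. The 5p share of the family was 2.975% (2.72% to 3.25%) in iron ventral and 1.77% (1.61% to 1.93%) in control ventral, and 2.87% (2.59% to 3.18%) in iron dorsal and 3.83% (3.52% to 4.15%) in control dorsal.

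The 3p arm of miR-129 comes from 2 precursors whose sequences differ at 1 base. Counted from the 5′ end, the change from miR-129-2-3p to miR-129-1-3p is C20U, outside the seed, so both have the same seed.
miR-129-2-3p: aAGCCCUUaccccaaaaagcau
miR-129-1-3p: aAGCCCUUaccccaaaaaguau
Rows named miR-129-2-3p summed to 99.0 CPM in iron ventral, 166 CPM in control ventral, 114 CPM in iron dorsal and 113.8 CPM in control dorsal. These rows had the pattern of the annotated miR-129a-3p, with control ventral as the high library and a dorsal iron ratio of 1.002 (0.927 to 1.08). Rows named miR-129-1-3p, a sequence whose listed species do not include pig, summed to 41.4 CPM in iron ventral, 34.7 CPM in control ventral, 29.95 CPM in iron dorsal and 45.5 CPM in control dorsal. Here iron dorsal was the low library, as for the 5p arm, with a dorsal iron ratio of 0.658 (0.571 to 0.757), beside 0.648 (0.636 to 0.661) for the 5p arm. In the ventral hippocampus the iron ratio was 0.596 (0.556 to 0.640) for miR-129-2-3p and 1.195 (1.05 to 1.36) for miR-129-1-3p, intervals that do not overlap. These intervals do not cover reads assigned to the wrong one of such near-identical rows, and how reads were divided is not stated. The 5p sequences of the 2 precursors were not separable in these counts.

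**Figure D4:**
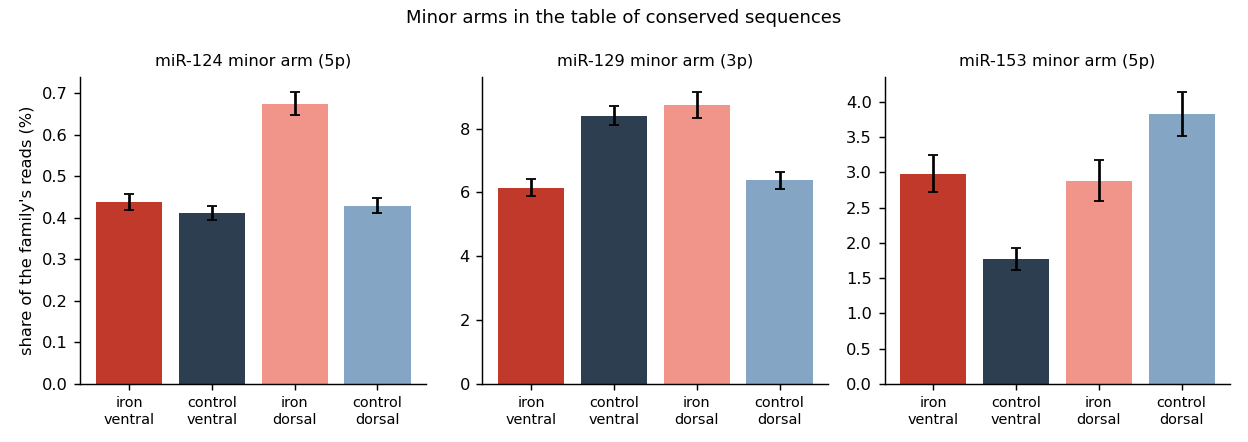
Share of each family's reads, in percent, held by the minor arm of miR-124, miR-129 and miR-153 in the table of conserved sequences, with exact binomial 95% intervals from counting error. The miR-124 share is highest in iron dorsal at 0.675%, the miR-129 share is higher in control ventral and iron dorsal than in the other libraries, and the miR-153 share is lowest in control ventral at 1.77%.

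For the other 4 families the minor arm was rarer or showed no such split. The miR-128 minor arm held 0.107% to 0.179% of its family, that of miR-137 0.125% to 0.168% and that of miR-218 0.105% to 0.193%. That of miR-138 held 1.53% in iron ventral, 1.57% in control ventral, 1.75% in iron dorsal and 1.80% in control dorsal, with overlapping intervals. For miR-128, the minor-arm dorsal iron ratio of 1.235 (1.02 to 1.503) lay on the other side of 1 from the abundant arm at 0.735 (0.729 to 0.740), on 217 reads in iron dorsal and 205 in control dorsal. All minor-arm rows of miR-128 are named miR-128-1-5p, while its abundant arm can come from either precursor, so these are not the arms of a single hairpin.

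Among miRNAs outside the 7 families, those nearest in profile to each leading member were found by the distance between log2 CPM values centred over the 4 libraries, where 0 is an identical profile. This is a description over 4 libraries, and many miRNAs can lie near any profile at that number. For miR-124a they were miR-342 (distance 0.051), miR-9843-3p (0.065) and miR-15a (0.087), each with its lowest level in iron dorsal. For miR-128 it was miR-374a-5p (0.091), at 10299 CPM in iron ventral, 8617 CPM in control ventral, 8834 CPM in iron dorsal and 12541 CPM in control dorsal. The nearest to miR-218 was miR-28-3p (0.080), to miR-137 miR-30e-3p (0.078), to miR-138 miR-296-3p (0.080) and to miR-129b miR-3613 (0.055). The nearest to miR-153 was farther, miR-551a at 0.191 and 14.4 to 20.01 CPM. Among the members, miR-124a and miR-138 lay 0.106 apart and miR-153 and miR-129a-3p 0.286 apart.

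Other miRNAs associated with neurons were taken as a second list of 16 annotated miRNAs, 13 of them measured. In ventral hippocampus 6 were above and 7 below 0 for iron, with a median log2 ratio of -0.03. In dorsal hippocampus 3 were above and 10 below, with a median of -0.20. For dorsal against ventral hippocampus the median was -0.03 in iron and -0.14 in control, with 6 above and 7 below in each. None of the 13 reached 2-fold in any of the 4 comparisons. Of the most abundant 3, miR-7 was higher in iron dorsal than in control dorsal, and miR-323 was lower. miR-9 was nearly level, and scaling to total reads, which moves dorsal iron log2 ratios by -0.13, puts it below control. miR-9 stood at 184262 CPM in iron ventral, 202670 CPM in control ventral, 180323 CPM in iron dorsal and 176620 CPM in control dorsal. miR-7 stood at 28702 CPM in iron ventral, 49733 CPM in control ventral, 52574 CPM in iron dorsal and 36339 CPM in control dorsal, with the lowest log2 ratio of the list for ventral iron (-0.79) and the highest for dorsal against ventral in iron (0.87). miR-323, from an imprinted cluster expressed in brain, stood at 1911 CPM in iron ventral, 1782 CPM in control ventral, 2052 CPM in iron dorsal and 2333 CPM in control dorsal. At the ends of the list, miR-369 was highest for ventral iron (0.45) and for dorsal against ventral in control (0.75), where miR-7 was lowest (-0.45). For dorsal iron miR-874 was highest (0.58) and miR-135 lowest (-0.89), and miR-135 was also lowest for dorsal against ventral in iron (-0.87). Low values in iron dorsal were thus found for some neuron-associated miRNAs of both lists and not for others.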

How the data were processed

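Small RNA was sequenced on an Illumina instrument, per the labels. The submitters' processing notes list the trimmer cutadapt 1.2.2, Sscrofa 10.2 and susScr 3 (pig builds). Neither the aligner nor the miRNA release, nor how reads were divided between rows or strand was used, is given in the sources used here. The authors deposited reads per row as estimated counts, since some are fractions, and they were rounded to whole numbers. The deposited RPM of the annotated table, reads scaled by the authors to a common total, served as an alternative scaling. Unused columns of per-sample values number 8.

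Rows were merged where they had the same precursors and their reads differed by under 0.1% in all libraries, which left 321 miRNAs. Libraries were scaled with TMM (edgeR 4.0.16, R 4.3.3), and 251 miRNAs with at least 10 CPM in at least 1 library were measured. Ratios carry exact conditional (Clopper-Pearson) 95% intervals (scipy 1.17.1). They compare libraries, not conditions. A miRNA was counted at 2-fold or 1.5-fold only where its interval also excluded 1. Iron and region were tested by quasi-likelihood in edgeR (additive model, Benjamini-Hochberg adjustment over 251, threshold 0.05), with DESeq2 1.42.0 and limma 3.58.1 as alternatives. Scripts were tested on simulated data. Libraries were matched to groups by the number in their titles, with 1 library per combination. In the conserved table, rows were summed by family, and a family's abundant arm is the set of rows that share 10 bases in a row with its most abundant row.

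The members, the marker lists and the rules were chosen with earlier results of these data known. Named miRNAs were all members, the nearest profiles (3 for the most abundant member, 1 for the leading member of each other family), and from the second neuron list the 3 most abundant with the highest and lowest ratio of each comparison. Depth was 11396800 to 13839534 annotated reads per library, so a count of 0 allows up to 3 reads. Intervals cover counting error only. The lists of microglia, erythroid, vascular, choroid plexus, ependyma, muscle and liver markers were summed as well. Iron libraries held 123% (ventral) and 98.0% (dorsal) of control for microglia and blood immune miRNAs (where 4 of 6 in ventral and 5 of 6 in dorsal hippocampus were below 0 on the log2 scale, and miR-146b was at 1.20 in ventral), 94.8% and 103% for erythroid, 106% and 86.0% for vascular, 70.3% and 82.5% for choroid plexus, 74.7% and 60.7% for ciliated ependyma, 115% and 76.65% for muscle, and 148% and 178% for liver. Their part in the members' values was not tested.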

Additional observations from a re-analysis of the deposited data

Results flagged for a closer look

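miR-128 drew attention because its iron ratios lay on opposite sides of 1 in the 2 regions, with a log2 ratio of -0.44 in dorsal and 0.35 in ventral hippocampus. The dorsal minus ventral difference was -0.79 and was not tested, since there is 1 library per combination. Opposite iron ratios, with both counting intervals excluding 1 under 3 scalings, were found for 18.7% of all 251 measured miRNAs.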

How the results depend on the processing

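No member reached 2-fold with a counting interval that excludes 1 in any comparison, under any scaling, minimum or merging tried. With no minimum, miR-218-3p varied 5.96-fold between control ventral (0.483 CPM, 7 reads) and control dorsal (0.081 CPM, 1 read), too few reads for a call. No member was called by edgeR under any scaling, minimum, merging or test tried. Over all miRNAs tested, edgeR calls for iron and region numbered 2 and 3 with total reads, 2 and 3 with DESeq2 size factors, 3 and 4 with no minimum and 2 and 3 with rows not merged, and 0 under the other edgeR fits. With a 1.5-fold threshold the count of members was 1 for ventral iron and 2 for dorsal against ventral in control. These counts depended on the scaling, in alternatives chosen after seeing the data. With total reads they were 2 for ventral iron, 2 for dorsal iron and 1 for dorsal against ventral in control. With the authors' RPM the dorsal iron count was 2, and with TMM without the members the control region count was 1. With rows not merged that count held miR-129a-3p in place of miR-128. Scaling to total reads moved all dorsal iron log2 ratios by -0.13, the authors' RPM by -0.11, and total reads moved the dorsal to ventral ratios in iron by -0.10. Among the medians that follow, those with no minimum also take in miR-218-3p, and those with rows not merged count the miR-218 reads 3 times. The median log2 ratio of members for ventral iron was -0.067 with total reads, 0.018 with DESeq2 size factors and -0.038 with rows not merged. For dorsal iron it was -0.40 with total reads, -0.26 with DESeq2 size factors, -0.32 with TMM computed without the members, -0.22 with no minimum, -0.16 with rows not merged, -0.38 with the authors' RPM and -0.22 with the 2 miR-129 rows as 1 member, an alternative chosen after seeing the data. For dorsal against ventral in control it was 0.064 with total reads, 0.053 with no minimum, 0.038 with rows not merged, 0.13 with the authors' RPM and 0.053 with the miR-129 rows as 1. In iron it was -0.30 with total reads, -0.25 with TMM without the members, -0.25 with no minimum, -0.16 with rows not merged, -0.27 with the authors' RPM and -0.16 with the miR-129 rows as 1.

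The members' share of reads was 5.65% in iron ventral, 5.43% in control ventral, 4.73% in iron dorsal and 6.10% in control dorsal with rows not merged, where miR-9 is counted 3 times. It was 6.83%, 6.72%, 5.34% and 7.22% in the same order over annotated and predicted reads, and 6.88%, 6.81%, 5.43% and 7.27% with the miR-129 rows as 1. Iron dorsal had the lowest share under all of these. Single ratios near 1 changed sign with scaling for miR-124a, miR-137, miR-138, miR-129b and miR-129a-5p in ventral iron, for miR-153 and miR-129a-3p in dorsal iron and for miR-124a between regions in control. miR-153 in dorsal iron was 0.02, and -0.11 with total reads. Region calls at an unadjusted p under 0.05 took in 1 member, miR-153, with DESeq2, with total reads and with rows not merged, where 5.58%, 4.78% and 5.22% of all miRNAs tested passed. Its adjusted p was 0.873 with DESeq2, 0.924 with total reads (edgeR) and 0.785 with rows not merged (edgeR).

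No paired analysis was possible because each combination of region and treatment has 1 library, and a replicate block has nothing to pair. The region term of the additive model does compare the regions within each treatment. Leaving out a library was not run, since the additive model would keep 0 residual degrees of freedom. Depth limits only miR-218-3p and the rarest minor arms. The main limit is that no spread between animals was measured.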

Other observations

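Rows that start 1 base before the usual 5′ end, and so have the seed UAAGGCA, held 36.5% of the abundant miR-124 arm in iron ventral, 36.8% in control ventral, 35.1% in iron dorsal and 38.1% in control dorsal. Rows of other species that differ in their first base can share reads, and how reads were divided is not stated. For miR-137, rows with other starts held 20.5% in iron ventral, 18.4% in control ventral, 21.2% in iron dorsal and 20.01% in control dorsal. In miR-128, miR-129, miR-138, miR-153 and miR-218 all rows of the abundant arm shared 1 seed.

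Some rows of the conserved table match the other strand of a member. The chicken row miR-124c-5p is complementary to rows of the abundant miR-124 arm over 17 to 19 bases and had 475 reads in iron ventral, 455 in control ventral, 387 in iron dorsal and 450.9 in control dorsal. Whether these are reads of the other strand was not tested.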
